A study of Homo sapiens with 87 samples.

Results

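The genes described here are the 7 core scaffold subunits of the BAF chromatin remodelling complex: SMARCC1, SMARCC2, SMARCB1, SMARCE1, SMARCD1, SMARCD2 and SMARCD3. They were taken as a named list, not by a rule on measured values, out of 35438 genes listed in the deposited count tables. Earlier results of these data were known when the list was chosen. All 7 passed the filter on low counts in both tables, among 16159 genes tested in the knockout table and 14601 in the knockdown table.

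RNA was sequenced from HAP1 cells, which carry nearly a single set of chromosomes and descend from a patient-derived leukaemia line (KBM-7), after loss of subunits of the BAF complex. Of 75 knockout-table libraries, 3 belong to the wild-type line (C631) and 3 to each of 24 knockout clones covering 22 genes: ACTB, ARID1A (clones 618-10 and 618-3), ARID1B, ARID2, BCL11A, BCL11B, BCL7A, BCL7B, BRD7, BRD9, DPF1, DPF2, DPF3, PBRM1, PHF10, SMARCA2, SMARCA4 (clones 2878-4 and 2878-6), SMARCC1, SMARCC2, SMARCD1, SMARCD2 and SMARCD3. The knockdown table holds 12 libraries in 6 groups of 2. In it, wild-type, ARID2 knockout and SMARCA4 knockout cells each carried a control knockdown, and the other groups were ARID2 knockout with SMARCA4 knockdown, SMARCA4 knockout with ARID2 knockdown, and wild type with both knockdowns. Cells of all groups were grown without any drug named in the labels. Apart from ARID1A and SMARCA4, each knocked-out gene was represented by 1 clone, so a change in a clone cannot be told apart from a property of that clone. Separate cultures are not named in the labels, so the p-values measure the spread between these libraries only, and in bulk RNA fewer cells of a type and less RNA per cell cannot be told apart.

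BAF complexes are assembled stepwise around a core module. A pair of SMARCC proteins forms the scaffold, one SMARCD protein and SMARCE1 join it, and SMARCB1 is built in, before the ARID subunits and the ATPase module (SMARCA4 or SMARCA2) are added. SMARCC1 and SMARCC2 are paralogs of each other, as are SMARCD1, SMARCD2 and SMARCD3, while SMARCB1 and SMARCE1 have no close paralog. Of the final assemblies, the form with ARID1A or ARID1B, the form with ARID2, PBRM1, BRD7 and PHF10 (PBAF) and the form with BRD9 (non-canonical BAF) share core members to different extents; the last lacks SMARCB1 and SMARCE1.

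Total counts were between 14917644 and 29993652 per library in the knockout table and between 9144150 and 19789622 in the knockdown table. Single libraries held between 216 and 9771 counts for a member in the knockout table and between 172 and 5795 in the knockdown table. For the gene named as knocked out, 20 of the 24 clones had no library as high as the lowest of wild type. Of 8 blood markers, PTPRC and CD34 among them, all had a median count of at most 2, while the 4 HAP1 markers were tested and summed to between 251.3 and 407.1 CPM (counts scaled to the library total). The fold changes of the SMARCC2 clone, whose labels name no clone, followed the GC content of the genes (Spearman rho 0.4563 across genes, which are not independent, against -0.0965 to 0.2067 in the other clones). Core-gene values named below for this clone against wild type are given with and without an adjustment for GC, and its other values without. The labels do not say whether these libraries were prepared together with the wild-type libraries they are compared with.

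Per transcript length, SMARCC1 stood highest of the 7 genes in wild-type cells. On the authors' quantile-normalized log2 TPM scale its level was 8.39 ± 0.056 (SD, n = 3). SMARCB1 followed at 7.08 ± 0.119, then SMARCD1 at 6.61 ± 0.175, SMARCD2 at 6.42 ± 0.0871, SMARCE1 at 6.36 ± 0.125 and SMARCC2 at 6.19 ± 0.104. SMARCD3 was lowest at 4.78 ± 0.173. The libraries of SMARCC1, SMARCB1 and SMARCD3 overlapped with those of no neighbour in this order, and those of SMARCD1, SMARCD2, SMARCE1 and SMARCC2 ran into one another. SMARCC1 made up 82.1% ± 1.66 (SD, n = 3) of the summed TPM of both SMARCC genes. Among the SMARCD genes the shares were 46.2% ± 2.9 for SMARCD1, 40.7% ± 2.7 for SMARCD2 and 13.1% ± 2.05 for SMARCD3.

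The promoters of SMARCE1, SMARCD3 and SMARCD2 are shown because the results below turn on them: SMARCE1 and SMARCD3 were lower in the clones without SMARCA4, and SMARCD2 in those without ARID2 or PBRM1. The sequences are the 250 bases before the annotated start (RefSeq, GRCh38.p14), which is a different build from that of the counts, printed 5' to 3' on the gene's strand. Of the 7 genes, 5 matched the promoter table, SMARCC1 and SMARCC2 being the others, and of the 3 entries each for SMARCD2 and SMARCD3 the outermost is given. The positions are chr17:40647819-40648068, chr7:151277150-151277399 and chr17:63842686-63842935, all on the minus strand. Capitals mark exact matches, on either strand, to 4 short motifs that do not overlap here: the GC box, spelled GGGCGG, the ETS core, spelled CGGAAG, the CAAT box, spelled CCAAT, and the TATA box, spelled TATAAA.
SMARCE1: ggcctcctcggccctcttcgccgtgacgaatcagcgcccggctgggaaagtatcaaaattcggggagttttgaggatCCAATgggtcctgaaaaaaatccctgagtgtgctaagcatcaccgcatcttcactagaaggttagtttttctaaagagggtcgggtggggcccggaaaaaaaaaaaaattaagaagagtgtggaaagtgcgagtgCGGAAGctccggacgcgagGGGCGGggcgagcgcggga
SMARCD3: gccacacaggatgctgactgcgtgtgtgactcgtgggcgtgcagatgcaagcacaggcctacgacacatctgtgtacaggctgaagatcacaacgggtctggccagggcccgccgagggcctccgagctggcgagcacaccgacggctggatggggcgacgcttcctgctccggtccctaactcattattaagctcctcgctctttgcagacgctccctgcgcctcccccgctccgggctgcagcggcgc
SMARCD2: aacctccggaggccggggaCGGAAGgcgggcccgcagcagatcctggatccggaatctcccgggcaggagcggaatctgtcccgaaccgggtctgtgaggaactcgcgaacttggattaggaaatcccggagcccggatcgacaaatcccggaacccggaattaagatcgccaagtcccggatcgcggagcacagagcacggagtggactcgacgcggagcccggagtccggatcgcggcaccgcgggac
SMARCE1 holds 1 GC box, 1 ETS core and 1 CAAT box, SMARCD2 holds 1 ETS core, and SMARCD3 holds none of the 4. Over all 35116 entries of the same length, 42.6% hold a GC box, 16.5% the ETS core, 32% a CAAT box and 10.7% a TATA box. SMARCE1 and SMARCD3 share none of these letters in this window.

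**Figure D1:**
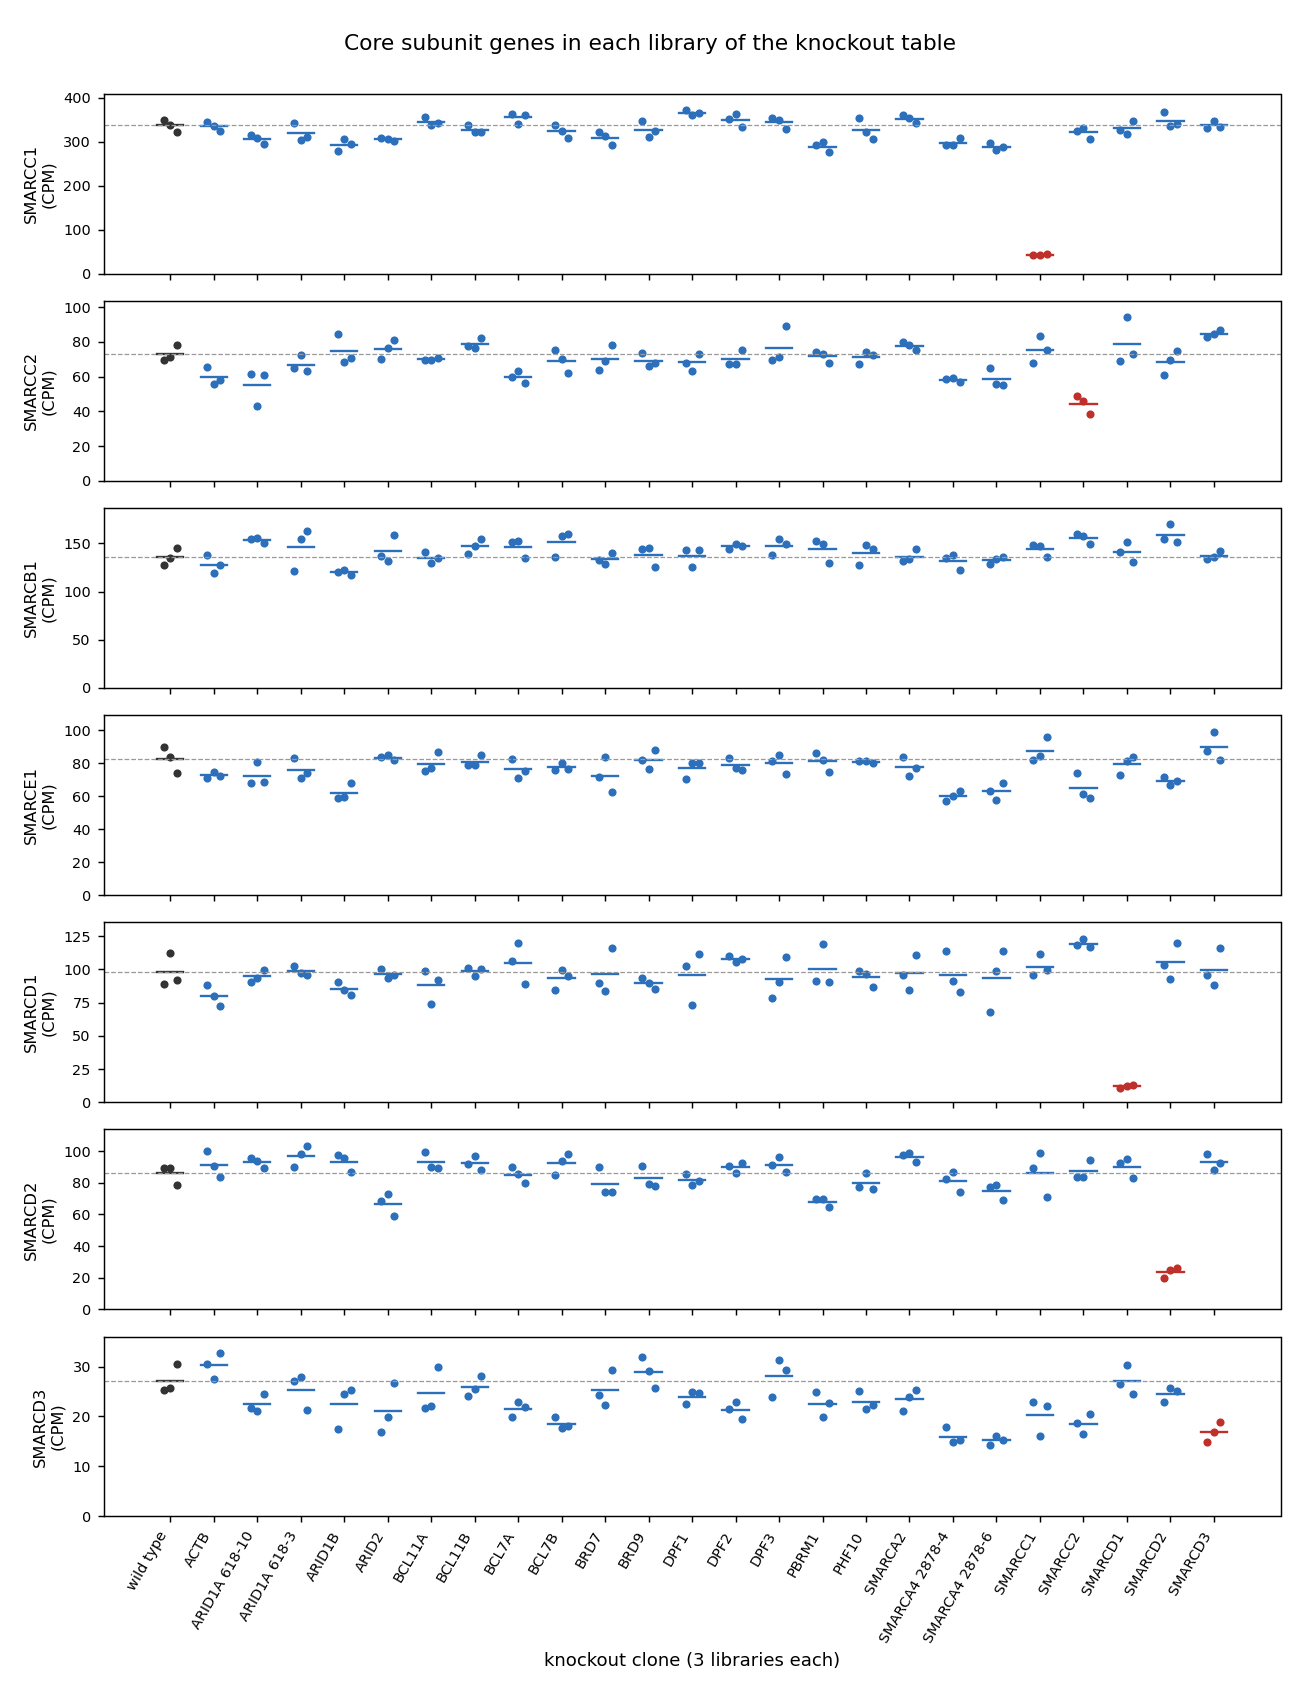
CPM (vertical axes, linear from 0) of each core subunit gene in the 3 libraries (points) of wild type and the 24 knockout clones (horizontal axis), with group means as bars, the dashed line at the wild-type mean and the gene's own knockout in red. SMARCC1, SMARCD1 and SMARCD2 drop far below all other groups in their own knockouts, and SMARCD3 in its own knockout (14.93 to 18.86 CPM) lies in the same range as in both SMARCA4 clones.

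The core genes were first measured in the clones in which they had been targeted. SMARCC1, the more abundant scaffold protein gene, had 41.48, 41.5 and 45.46 CPM in the 3 SMARCC1 knockout libraries against 350.6, 339.5 and 322.2 CPM in wild type. The groups were far apart, with the knockout mean at 12.7% of wild type and a log2 fold change of -2.98 (SE 0.0555, edgeR adjusted p = 3.26e-45). SMARCD1, a subunit known for contacting transcription factors, had 10.96, 12 and 12.87 CPM in its knockout against 89.43, 112.6 and 92.11 CPM in wild type. Its mean was 12.2% of wild type (log2 fold change -3.07, SE 0.159, edgeR adjusted p = 1.61e-23). SMARCD2, the paralog known for its part in granulocyte development, had 19.93, 24.86 and 26.21 CPM against 89.59, 89.42 and 78.64 CPM, or 27.6% of wild type (log2 fold change -1.86, SE 0.0927, edgeR adjusted p = 4.94e-24). None of these libraries overlapped with wild type, and the 3 changes were the only ones of the 7 genes that passed with a log2 fold change of at least 1 in size in any clone, which 4.7% of gene and clone pairs did over all genes.

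The remaining targeted genes kept more of their transcript. SMARCC2, the less abundant scaffold paralog, had 48.94, 45.93 and 38.18 CPM in its knockout against 69.59, 71.44 and 78.15 CPM in wild type, a mean of 60.7% of wild type. Its log2 fold change was -0.75 (SE 0.106, edgeR adjusted p = 9.19e-08) and -0.76 after the GC adjustment. Exons of SMARCC2 overlap with those of MYL6 on the opposite strand in the GENCODE annotation, and whether the authors' counting used the strand is not given in the sources used here. MYL6, a myosin light chain gene, stood at 251.7 ± 18.9 CPM in that clone against 392 ± 30.7 CPM in wild type (SD, n = 3 each; log2 fold change -0.67), and its part in the SMARCC2 value was not tested. SMARCD3, the paralog known from heart and muscle development, had 14.93, 16.82 and 18.86 CPM against 25.21, 25.76 and 30.51 CPM. Its mean was 62.1% of wild type (log2 fold change -0.72, SE 0.145, edgeR adjusted p = 0.000199). In both SMARCA4 clones, where SMARCD3 had not been targeted, its means were 15.99 and 15.2 CPM, with libraries that overlapped those of its own knockout; the difference was not tested. SMARCB1 and SMARCE1 were not knocked out in these libraries.

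Whether the transcript of one paralog differs once another is knocked out can be asked of 8 pairs. None of the 8 passed in edgeR's quasi-likelihood test at an adjusted p of 0.05. Of all genes, 17.6% passed in the SMARCC1 clone, 33.2% in the SMARCC2 clone, 14.2% in the SMARCD1 clone, 7.12% in the SMARCD2 clone and 8.55% in the SMARCD3 clone. At an unadjusted p under 0.05 there was 1, and DESeq2 gave 0. SMARCC2 had 67.64, 83.38 and 75.02 CPM in the SMARCC1 knockout, which spans the wild-type libraries (log2 fold change 0.04, 95% interval -0.17 to 0.25). SMARCC1 had 325.8, 332.6 and 307.6 CPM in the SMARCC2 knockout, the 1 pair with an unadjusted p under 0.05, and it pointed down (log2 fold change -0.10, interval -0.20 to -0.0005, edgeR adjusted p = 0.117). After the GC adjustment that value was 0.0037.

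In the SMARCD family none of the 6 values passed. In the SMARCD1 knockout the log2 fold changes were 0.04 for SMARCD2 (interval -0.13 to 0.22) and -0.04 for SMARCD3 (-0.32 to 0.25). In the SMARCD2 knockout they were 0.10 for SMARCD1 (-0.18 to 0.38) and -0.15 for SMARCD3 (-0.44 to 0.13), and in the SMARCD3 knockout -0.01 for SMARCD1 (-0.29 to 0.27) and 0.08 for SMARCD2 (-0.10 to 0.26). The lowest and highest bounds of the 8 intervals, -0.44 and 0.38, belonged to SMARCD3 and SMARCD1 in the SMARCD2 knockout. Against the mean of the other clones, with the paralog's own knockout left out of that mean, none of the 8 passed either. The highest value there was SMARCD3 in the SMARCD1 knockout (log2 fold change 0.24, SE 0.101, edgeR adjusted p = 0.0861).

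**Figure D2:**
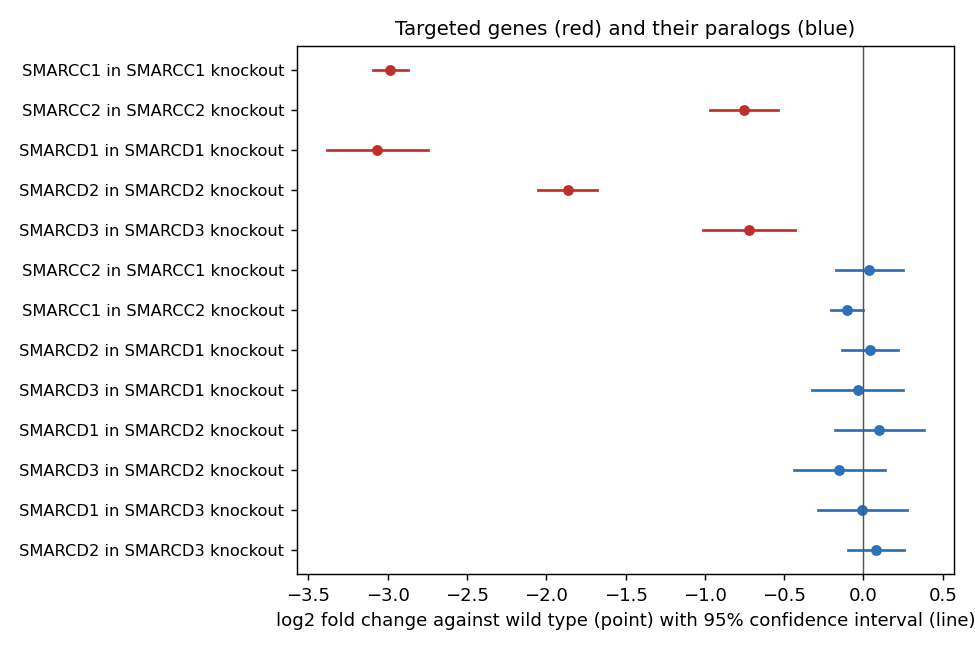
Log2 fold change against wild type (horizontal axis; points, with 95% confidence intervals as lines; n = 3 libraries per group) of the 5 targeted core genes in their own knockout (red) and of each paralog in the same clones (blue). The targeted genes lie between -3.07 and -0.72, and all 8 paralog values lie between -0.15 and 0.10.

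The make-up of each family on the TPM scale differed in the knockouts of its members. In the SMARCC1 knockout SMARCC2 made up 63.7% ± 2.89 of the summed SMARCC TPM, against 17.9% ± 1.66 in wild type (SD, n = 3 each). The summed TPM of both genes was 117 ± 8.57 there and 408.7 ± 7.53 in wild type. In the SMARCD1 knockout SMARCD2 made up 70.4% ± 1.49, against 40.7% ± 2.7, and the family sum was 128.1 ± 7.98 TPM against 211.2 ± 12.9 TPM. In the SMARCD2 knockout SMARCD1 held 68.4% ± 2.94 of a sum of 153.7 ± 16.7 TPM. In the SMARCD3 knockout the sum was 209.2 ± 19.1 TPM, within the spread of wild type. These shares contain the targeted gene's own drop and were given no test.

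**Figure D3:**
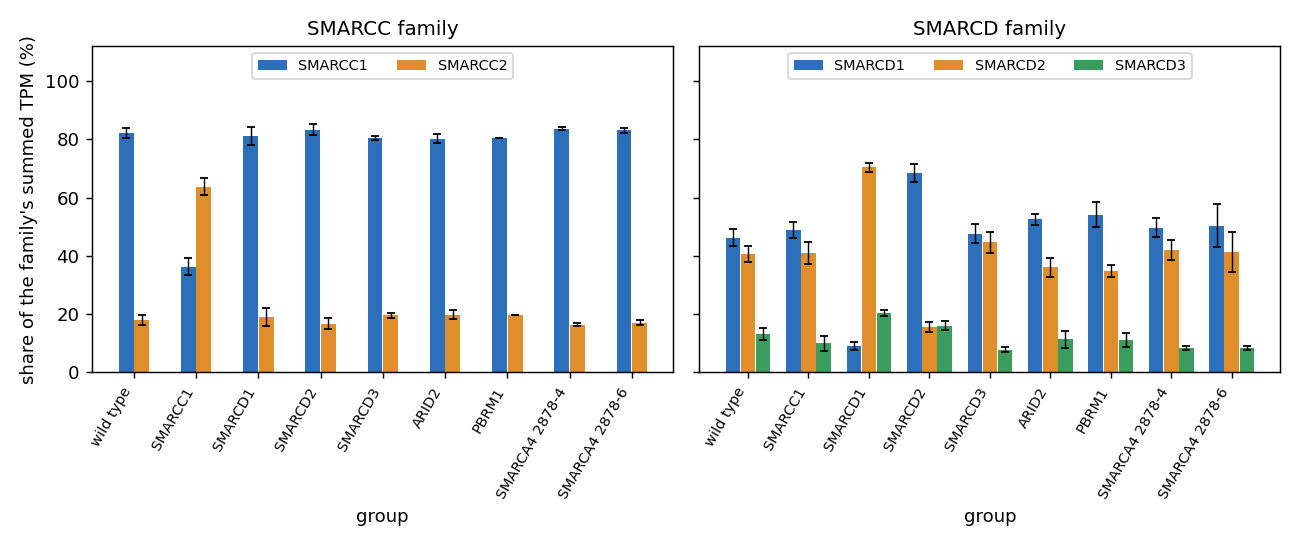
Share of each gene in the summed TPM of its family (vertical axis, percent; bars are means of 3 libraries, 2 for PBRM1, error bars SD) in wild type and 8 knockout clones. SMARCC2 is the larger part of the SMARCC family only in the SMARCC1 knockout among the groups drawn, and SMARCD2 holds 70.4% of the SMARCD family in the SMARCD1 knockout.

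Outside the own knockouts there were 163 pairs of core gene and clone, and 19 (11.7%) passed in edgeR's test, against 14.1% of the pairs of all genes. All 19 were lower than wild type (6.78% of the pairs of all genes were) and none reached a log2 fold change of 1, which 4.7% of all pairs did. For comparison, 76 of 533 pairs (14.3%) passed for the other BAF subunits, 50 lower and 26 higher, and 98 of 1080 (9.07%) for a list of other chromatin remodellers, 83 lower and 15 higher. The median size of the log2 fold change was 0.0893 for the core genes and 0.1769 for all genes. Against the mean of the other clones in place of wild type, 34 of the 163 pairs passed (20.9%, with 21% for all genes), 20 lower (9.57% for all genes) and 14 higher (11.5%). Of the 19 pairs, 17 passed there too, with each clone's own libraries shared between both comparisons. Wild type ranked 22 from the lowest of 25 groups for SMARCD3 and for SMARCE1, and 7 for SMARCB1.

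**Figure D4:**
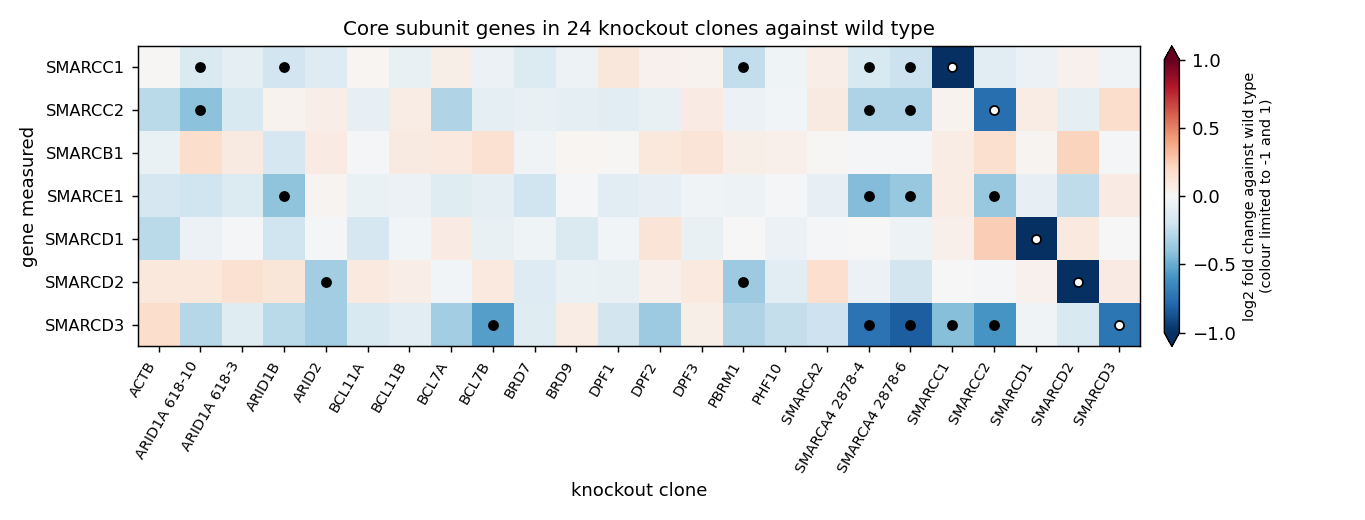
Log2 fold change against wild type (colour, limited to -1 and 1) of the 7 core genes (rows) in the 24 knockout clones (columns). Dots mark values that passed in edgeR's test, white for a gene's own knockout; 4 of the 7 genes passed in each SMARCA4 clone, and SMARCB1 passed in none.

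In the clones without SMARCA4, an ATPase of the complex, SMARCC1, SMARCC2, SMARCE1 and SMARCD3 were lower than in wild type. Both clones are compared with the same wild-type libraries, so their values are given side by side. In clones 2878-4 and 2878-6, 17.4% and 16.2% of all genes passed as lower, and 24.6% and 23.8% had every library below wild type. SMARCD3 had 17.81, 14.86 and 15.3 CPM in the first clone and 14.23, 16.02 and 15.36 CPM in the second, all below the 25.21 to 30.51 CPM of wild type. The log2 fold changes were -0.74 (SE 0.145, edgeR adjusted p = 3.18e-05) and -0.83 (SE 0.145, edgeR adjusted p = 4.9e-06). SMARCE1, the subunit with an HMG domain that binds DNA, had 56.82, 60.09 and 63.15 CPM and then 63.02, 57.5 and 68.21 CPM, against 89.65, 83.57 and 73.85 CPM in wild type. Both groups lay below wild type (log2 fold change -0.43, edgeR adjusted p = 0.000183, and -0.38, edgeR adjusted p = 0.00105).

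The scaffold genes fell by less in these clones by their estimates, and the differences between genes were not tested. SMARCC2 had 58.78, 58.98 and 56.62 CPM in clone 2878-4 and 64.86, 55.52 and 55.23 CPM in clone 2878-6, below the wild-type range in both (log2 fold changes -0.31 and -0.31, edgeR adjusted p = 0.0188 and 0.0176). Neither SMARCC2 value passed without wild-type replicate 3 or without replicate 3 of the clones, nor that of clone 2878-6 without replicate 2 of the clones. MYL6, on the opposite strand, had 446.8 ± 25.9 and 502.3 ± 13.7 CPM, against 392 ± 30.7 CPM in wild type (SD, n = 3 each). It passed as higher in clone 2878-6 (log2 fold change 0.37, edgeR adjusted p = 0.00427) and did not pass in clone 2878-4 (0.21). Its part in these SMARCC2 values was not tested. SMARCC1 had 293.6, 292.7 and 308.3 CPM and then 296.4, 281.5 and 288.8 CPM, also below wild type (log2 fold changes -0.15 and -0.21, edgeR adjusted p = 0.0137 and 0.00055). The value of clone 2878-4 did not pass without wild-type replicate 1, without replicate 1 or 2 of the clones, or with no filter on low counts. SMARCB1, SMARCD1 and SMARCD2 did not pass in either clone. Between the pairs of clones of SMARCA4 and of ARID1A, 0 of 14 core-gene differences passed in edgeR's test (1 at an unadjusted p under 0.05, 0 by DESeq2), where 3.43% and 2.3% of all genes passed. That 1 was SMARCC2 in ARID1A, higher in clone 618-3 than in 618-10 by a log2 of 0.26 (edgeR adjusted p = 0.311).

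SMARCD3 had the widest spread of group means of the 7 genes. They had an SD of 0.2472 on the log2 scale over 24 groups without its own knockout, which stands at the 54.2 percentile of all tested genes, while those of SMARCB1 (0.086) and SMARCC1 (0.0969) stood at the 4.38 and 7.2 percentiles. Besides the SMARCA4 clones, SMARCD3 was lower in BCL7B, in which its libraries had 19.96, 17.77 and 18.04 CPM (log2 fold change -0.55, SE 0.144, edgeR adjusted p = 0.00319; 9.48% of all genes were lower there). In the SMARCC2 clone it had 18.7, 16.47 and 20.4 CPM (log2 fold change -0.59, edgeR adjusted p = 0.00102, and -0.81 after the GC adjustment; 18% of all genes were lower). In the SMARCC1 knockout it had 22.84, 16.05 and 22.1 CPM (log2 fold change -0.43, edgeR adjusted p = 0.0297; 8.24% of all genes were lower there). That last value did not pass against the other clones, without wild-type replicate 3, without replicate 2 of the clones, or with no filter on low counts. Its exons overlap with those of CHPF2 on the opposite strand, which did not pass in any of these clones (35.38 ± 2.43 and 39.35 ± 1.4 CPM in those of SMARCA4, 45.35 ± 6.79 CPM in that of SMARCC2, 37.37 ± 0.978 CPM in wild type; SD, n = 3 each). The part of CHPF2 in the SMARCD3 values was not tested. In 11 of 23 clones every library of SMARCD3 lay below wild type, against 13.3% of gene and clone pairs over all genes. All 23 comparisons use the same 3 wild-type libraries, which ranked 22 from the lowest of 25 groups for SMARCD3, so the clones are not independent here. Against the mean of the other clones, its own knockout left out, SMARCD3 passed as lower in 4 of 23 clones and as higher in 3. Over all genes, against the mean of all other clones, 9.57% of gene and clone pairs passed as lower and 11.5% as higher. At the upper end SMARCD3 had 30.56, 27.6 and 32.71 CPM in the ACTB clone. This was higher than the mean of the other clones, its own knockout left out, by a log2 of 0.46 (SE 0.0986, edgeR adjusted p = 0.000209). Of all genes, 22.7% passed in the ACTB clone against the mean of all other clones.

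SMARCE1 was also lower in the ARID1B knockout, with 59.13, 59.19 and 67.82 CPM (log2 fold change -0.40, SE 0.0943, edgeR adjusted p = 0.000743). SMARCC1 was lower in that clone too, at 279.2, 307.1 and 295.2 CPM (log2 fold change -0.20, edgeR adjusted p = 0.00243), so 2 of the 7 core genes passed where 11.7% of all genes were lower. ARID1B is the paralog of ARID1A, the DNA-binding subunit. In ARID1A clone 618-10, where 8.9% of all genes were lower, SMARCC2 had 61.72, 43.21 and 60.96 CPM (log2 fold change -0.41, edgeR adjusted p = 0.00264) and SMARCC1 had 315.4, 309.1 and 295.6 CPM (-0.15, edgeR adjusted p = 0.0325). The SMARCC2 value rested on the library with 43.21 CPM: without replicate 2 of the clones it did not pass. Neither gene passed in clone 618-3, where 17.6% of all genes did. SMARCC1 in clone 618-10 lost its call in 8 of 12 other settings: without any single replicate of the clones, without wild-type replicate 1 or 2, with DESeq2's size factors, with no filter and on log2 TPM. It did not pass against the other clones either (edgeR adjusted p = 0.0681). In the ARID1B clone SMARCC1 lost it without replicate 1 of the clones and with no filter on low counts. In the SMARCC2 clone SMARCE1 had 74.25, 61.04 and 58.69 CPM, which overlapped with wild type (log2 fold change -0.38, edgeR adjusted p = 0.00114); with the GC adjustment it was -0.19 and did not pass (edgeR adjusted p = 0.0976). GENCODE lists 7 pseudogenes of SMARCE1, which could share reads with it.

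Apart from its own knockout, SMARCD2 had its lowest group means in the ARID2 and PBRM1 clones, which lack subunits particular to PBAF. It had 68.23, 73.04 and 59.04 CPM in the ARID2 clone (log2 fold change -0.35, SE 0.0882, edgeR adjusted p = 0.00265; 7.82% of all genes were lower) and 69.77, 69.74 and 64.74 CPM in the PBRM1 clone (-0.36, SE 0.0881, edgeR adjusted p = 0.00341; 3.74% of all genes were lower). All 6 libraries lay below the 78.64 to 89.59 CPM of wild type. Every library lay below wild type for 16.1% of all genes in the ARID2 clone and 9.56% in the PBRM1 clone. In the clones of the other PBAF subunits the values were 89.77, 74.39 and 73.85 CPM (BRD7) and 77.58, 85.85 and 75.88 CPM (PHF10), which overlapped with wild type and did not pass. After ARID2 and PBRM1, the next lowest mean was that of SMARCA4 clone 2878-6 (74.98 CPM), below BRD7 (79.34 CPM) and PHF10 (79.77 CPM). That clone did not pass against wild type, but did against the mean of the other clones without SMARCD2's own knockout (log2 difference -0.19, edgeR adjusted p = 0.0168). There the ARID2 and PBRM1 clones passed as well (-0.36 and -0.37, edgeR adjusted p = 2.02e-05 and 1.95e-05), and those of BRD7 and PHF10 did not. Of all genes, 39.6% passed in SMARCA4 clone 2878-6 against the mean of all other clones, 22% in the ARID2 clone and 13.5% in the PBRM1 clone. SMARCC1 was lower in the PBRM1 clone as well, with 292, 300 and 276.5 CPM (log2 fold change -0.25, edgeR adjusted p = 0.000332), and did not pass in the ARID2 clone.

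SMARCB1, the subunit that contacts the nucleosome's acidic patch, and SMARCD1 passed in no clone against wild type outside SMARCD1's own. For SMARCB1 the log2 fold changes ran from -0.17 to 0.22 over 24 clones, with 4 at an unadjusted p under 0.05. Its lowest group was ARID1B (120.3, 122.6 and 117.3 CPM) and its highest the SMARCD2 knockout (154.5, 169.7 and 151.6 CPM), against 127.2, 134.4 and 144.8 CPM in wild type. Against the mean of the other clones these 2 groups passed in edgeR's test (log2 differences -0.23, adjusted p = 0.00108, and 0.18, adjusted p = 0.021). Of all genes, 33.5% passed there in the ARID1B clone and 12.1% in the SMARCD2 clone. SMARCD1 ran from -0.27 to 0.25 over 23 clones, with none at an unadjusted p under 0.05, and its libraries within a group spread more (log2 SD 0.1808) than those of the other 6 genes. Against the mean of the other clones, its own knockout left out, SMARCD1 passed as higher in the SMARCC2 clone (log2 difference 0.29, edgeR adjusted p = 0.0121). Its libraries there had 116.6 to 123.2 CPM, against 89.43 to 112.6 CPM in wild type. Of all genes, 49% passed in that clone against the mean of all other clones, and no adjustment for GC was made in these comparisons. No pair of neighbouring groups in the order of SMARCB1, SMARCE1 or SMARCD3 levels had libraries that did not overlap.

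Of the 23 other BAF subunits tested, 1 passed with a log2 fold change of at least 1 in any of the 5 core-gene knockouts. Of all genes, 6.1% reached this in the SMARCC1 clone, 6.49% in SMARCC2, 4.57% in SMARCD1, 2.8% in SMARCD2 and 3.47% in SMARCD3. The 1 subunit was GLTSCR1L, of non-canonical BAF, in the SMARCD1 knockout. It had 47.77, 58.41 and 49.69 CPM against 16.02, 11.24 and 12.75 CPM in wild type, with no overlap (log2 fold change 1.93, SE 0.213, edgeR adjusted p = 1.24e-10). It did not pass in the other 4 core-gene knockouts. Its means there were 11.36 ± 2.97 CPM (SMARCC1), 10.83 ± 3.16 CPM (SMARCC2), 12.55 ± 2.87 CPM (SMARCD2) and 16.79 ± 2.77 CPM (SMARCD3; SD, n = 3 each). Outside the core it was high in the clones of BRD9, also of non-canonical BAF, at 61.21, 36.32 and 48.97 CPM (log2 fold change 1.86, edgeR adjusted p = 5.96e-10; 3.28% of all genes reached 1), and of BCL7B at 31.54, 25.68 and 25.61 CPM (1.05, edgeR adjusted p = 0.000113; 6.12% of all genes reached 1). It was also higher in SMARCA4 clones 2878-4 and 2878-6 (log2 fold changes 0.70 and 0.83, edgeR adjusted p = 0.00658 and 0.00132) and lower in the ARID2 clone (-0.79, edgeR adjusted p = 0.00693). SMARCD1 is the SMARCD paralog known in non-canonical BAF. This gene was named after its values were seen.

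In the knockdown table the core genes were measured again with ARID2 and SMARCA4 lost together. SMARCA4 itself stood at 307.2 ± 13.9 CPM in wild type with control knockdown (SD, n = 2), 25.07 ± 2.34 CPM in the SMARCA4 knockout, 19.47 ± 12.5 CPM in the ARID2 knockout with SMARCA4 knockdown and 86.29 ± 61.1 CPM in wild type with both knockdowns. ARID2 had 38 ± 10 CPM in wild type and 29.71 ± 0.109 CPM in its knockout, and did not pass in any of the 7 contrasts, so its loss is not checked by its transcript. Of the 49 pairs of core gene and contrast, 1 passed in edgeR's test (2.04%, against 5.92% of the pairs of all genes), with 4 at an unadjusted p under 0.05. It was SMARCC1 in the ARID2 knockout with SMARCA4 knockdown, with 191.2 and 243.1 CPM against 301.8 and 271.1 CPM in wild type (log2 fold change -0.45, SE 0.137, edgeR adjusted p = 0.0472; 15% of all genes passed). The call was lost in 13 of 16 other settings (edgeR adjusted p from 0.00476 to 0.204), among them the leaving out of any library but replicate 2 of the same group.

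The 4 genes that were lower in both SMARCA4 clones did not pass here in the SMARCA4 knockout with control knockdown, where 7.85% of all genes passed. SMARCD3 had 12.96 and 16.4 CPM against 18.24 and 18.14 CPM, lower in both libraries, as 20.6% of all genes were (log2 fold change -0.36, interval -0.80 to 0.09), and SMARCE1 had 67.42 and 51.38 CPM against 74.61 and 46.42 CPM, which overlapped (-0.07, interval -0.60 to 0.46). These intervals take in the values of the knockout table for SMARCE1 and, for SMARCD3, that of clone 2878-4. SMARCC1 had 288.7 and 289.2 CPM and SMARCC2 81.5 and 68.31 CPM, both within the wild-type range. SMARCD2 was at its lowest in the SMARCA4 knockout with ARID2 knockdown, at 59.43 and 65.64 CPM, where wild type had 78.63 and 79.65 CPM and 26.1% of all genes lay below wild type in both libraries (log2 fold change -0.38, interval -0.68 to -0.08, edgeR adjusted p = 0.101). It had 70.86 and 71.14 CPM in the ARID2 knockout and 66.41 and 72.46 CPM in wild type with both knockdowns, neither passing (log2 fold changes -0.16 and -0.20). Both lay below wild type without overlap, as 17.7% and 20.8% of all genes did in these comparisons.

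**Figure D5:**
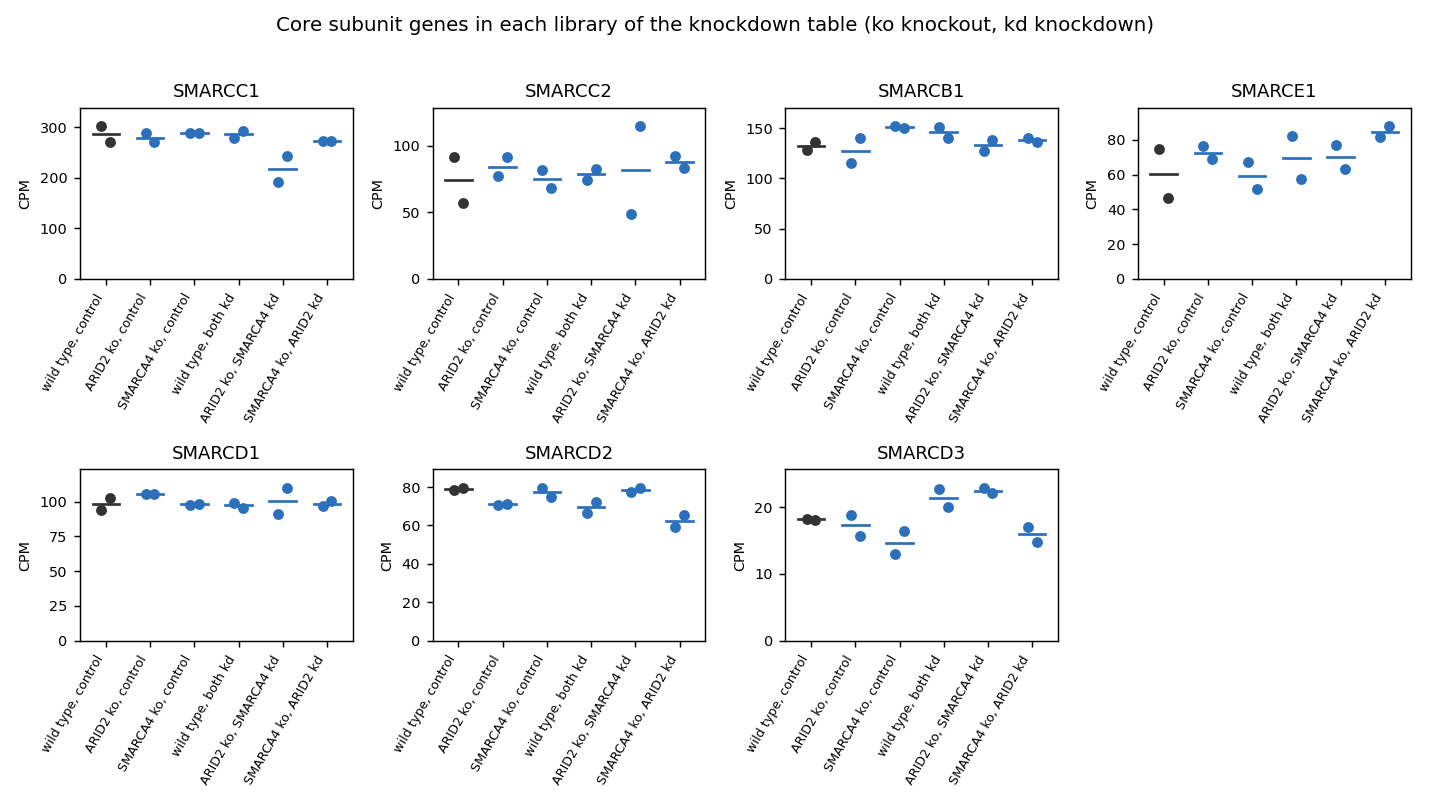
CPM (vertical axes, linear from 0) of each core gene in the 2 libraries (points) of the 6 groups of the knockdown table, with group means as bars and wild type with control knockdown in black. SMARCC1 is lowest in the ARID2 knockout with SMARCA4 knockdown (191.2 and 243.1 CPM), and SMARCD2 in the SMARCA4 knockout with ARID2 knockdown.

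Core genes did not all vary together over the groups. As a description over 23 to 25 group means that share the same libraries, and leaving out own knockouts, Pearson's r was highest for SMARCB1 with SMARCD1 (0.64), SMARCC2 with SMARCE1 (0.58) and SMARCE1 with SMARCD3 (0.49), and lowest for SMARCD1 with SMARCD3 (-0.41). Among 10966 genes averaging 5 CPM or more, the ones most like each core gene were ODC1 for SMARCC1 (r = 0.89), PDDC1 for SMARCC2 (0.82), ITFG2 for SMARCB1 (0.65), RPL22 for SMARCE1 (0.87), MARK4 for SMARCD1 (0.79), CKMT1B for SMARCD2 (0.86) and MT1E for SMARCD3 (0.83). CKMT1B has a near-identical copy and MT1E belongs to a multigene family, so their counts are uncertain.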

How the data were processed

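Poly-A RNA of HAP1 cells was made into stranded libraries, per the labels. Both gene-level tables hold the authors' deposited estimated counts, whole numbers of at least 1, which rounding left as they were. Trimmomatic, Bowtie, Picard and DESeq2, with GRCh37 and hg19, are named per the submitters' processing notes. Versions, counting tool, annotation and use of strand: not given in the sources used here. The third table holds the authors' quantile-normalized log2 TPM, per the name of the deposited table; 71 of its columns were used, without the SMARCC2 clone and 1 PBRM1 library. Of all columns, 8 matched no labelled sample and were not used: 3 further wild-type columns of the knockout counts, and 3 SMARCC2 and 2 wild-type columns of the log2 TPM table.

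CPM is a count over the library total. Each count table was fitted once over all its groups in edgeR 4.0.16 (R 4.3.3; filterByExpr, TMM, robust quasi-likelihood), and p-values were adjusted over all tested genes by Benjamini-Hochberg. "Passed" means an adjusted p under 0.05, and "lower" or "fell" is used in counts for such values. Intervals are 95%. DESeq2 1.42.0, limma 3.58.1 and the other alternatives are in the closing section, and figures used matplotlib 3.10.9. The steps were tested on simulated data. No pair of libraries of a group agreed within sampling noise (lowest chi-square per degree of freedom 7.448). Members are named in full, and other genes by the rule of the 3 genes with the highest correlation per member, of which the first is printed. The members and lists were chosen with earlier results of these data known. The list of 24 other BAF subunits had 23 members tested, and that of remodellers 45 of 45. Summed marker levels per knockout library were 0.4022 to 1.117 CPM for blood, 39.99 to 380.7 for lung epithelium, 16.91 to 168.6 for fibroblasts and 251.3 to 407.1 for HAP1. The replicate numbers did not pair samples by the rule of a correlation over 0.1 in every pair. Protein sequences were not used here.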

Additional observations from a re-analysis of the deposited data

How the results depend on the processing

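The 5 own-knockout values kept direction and significance under all settings tried: DESeq2's size factors, DESeq2's test, no filter, the log2 TPM table (not for SMARCC2), a fit of the 2 groups alone, left-out replicates, the replicate block and the GC adjustment. The count of core genes with a log2 fold change of at least 1 was 3 in each. The count that passed was 24 of 168 with own knockouts, 19 to 24 with replicates left out, 30 (3 higher, 27 lower) with the GC adjustment, and 21 of 161 without the SMARCC2 clone; the last 2 settings were chosen after seeing the data. Of the 19 changes outside own knockouts, 11 passed under each of the 11 or 12 settings and 8 were lost under at least 1, with no reversal of sign.

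Against wild type no paralog pair passed in any setting, but 6 pairs changed sign near 0. SMARCD1 in the SMARCD3 knockout was 0.0264 on log2 TPM. With the GC adjustment SMARCC1 in the SMARCC2 knockout was 0.0037 and SMARCD2 in the SMARCD1 knockout was -0.0016. With replicates left out, SMARCC2 in the SMARCC1 knockout ranged from -0.0355 to 0.1162, SMARCD2 in the SMARCD1 knockout from -0.0147 to 0.0998, SMARCD3 there from -0.12 to 0.0608, SMARCD1 in the SMARCD2 knockout from -0.0061 to 0.21 and SMARCD1 in the SMARCD3 knockout from -0.13 to 0.1047.

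Against the mean of all other clones 1 of 8 paralogs passed (SMARCD2 in the SMARCD3 knockout, log2 difference 0.17, edgeR adjusted p = 0.0422). This mean holds the paralog's own knockout, which lowers it. The count was 0 with that clone left out, 0 with no filter, 3 with the replicate block and 0 to 2 with replicates left out. In the knockdown table the count that passed was 1, against 0 with DESeq2's size factors, 0 with no filter, 2 with the replicate block and 0 to 2 with 1 library left out, when the group with 1 library is assumed to vary like the others; the cause was not tested. Replicate numbers did not pair the samples by the rule set, a correlation over 0.1 in every pair. Same-numbered libraries correlated at 0.0377 on average in the knockout table and at 0.297 in the knockdown table (lowest 0.0909). The share of same-numbered pairs over 0.1 was 0.4078 in the knockout table and 0.8667 in the knockdown table, where the rule failed narrowly. With the block, 25 of 168 passed in the knockout table. With 2 libraries a group the intervals of the knockdown table were wide, as for SMARCC2 in the SMARCA4 knockout (-0.78 to 0.71).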
